A study of Homo sapiens with 6 samples.

Results

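The genes described here build and steer RNA polymerases I and III in RPMI-8402 cells, an established human line of T-ALL, a leukaemia of immature T cells. They were 35 named genes, taken by their names in the authors' deposited table and joined by gene identifier to the count table of 63677 genes. All 35 had enough counts to be tested, among 15492 tested genes in all. The cells stably carried Cas9, an enzyme that cuts DNA where a guide RNA directs it, and held guides against MYC that doxycycline switches on. The groups were 3 samples given doxycycline and 3 given the solvent DMSO, all labelled MYC_KO and all with a stated time of 72 hours. The sources used here do not give the dose, the guides, a control with doxycycline but no guides, or whether the line was 1 clone. The labels do not call the replicates separate cultures, and the spread behind each p-value may therefore be technical only.

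Polymerase I works in the nucleolus and makes one long transcript that is cut into most of the ribosomal RNA. UBTF coats its genes, the SL1 complex of TBP and the TAF1 proteins marks the start, and RRN3 ties the enzyme to SL1. Polymerase III makes transfer RNA and other short RNAs, among them the smallest ribosomal RNA. TFIIIA and TFIIIC recognise most of its genes and place TFIIIB, built from TBP, BDP1 and BRF1 or BRF2, which recruits the enzyme, while MAF1 represses it. Both enzymes set how many ribosomes and transfer RNAs a growing cell can make, and MYC is known to promote the output of both.

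Total counts lay between 25819386 and 26214598 in the doxycycline samples and between 23121255 and 25412493 in the DMSO samples. MYC, the targeted gene, was not lower: it stood at 459, 431 and 431 CPM (a gene's counts as a share of its library, on one fixed scale and with libraries scaled by TMM) in the doxycycline samples, against 409, 422 and 407 CPM in the DMSO samples. Its log2 fold change was 0.09 with a standard error (SE) of 0.0489 (edgeR adjusted p = 0.160). MYC was called higher, at 0.14, when libraries were scaled by their upper quartile (edgeR adjusted p = 0.0357). Gene counts do not show whether the gene was cut. All 7 T cell markers examined were tested, with a summed level of 2301 to 2417 CPM in doxycycline and 2287 to 2378 CPM in DMSO samples. Summed markers of B cells were at 16.2 to 17.1 CPM in doxycycline and 11.5 to 12.9 CPM in DMSO, with MS4A1 at 0 counts. Those of fibroblasts were at 47.3 to 52.9 CPM in doxycycline and 39.9 to 40.2 CPM in DMSO, with COL1A2 and PDGFRA at 0 counts. The myeloid, erythroid and epithelial sums stayed at or under 1.97 CPM in every sample, and the part of any of these lists in the results was not tested.

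In the doxycycline samples a minority of the machinery fell, and its changes were mostly small. CD3EAP, TWISTNB and POLR1B of polymerase I, POLR3G and POLR3B of polymerase III and GTF3C4 of TFIIIC were called lower in the fit described here and in all 15 alternative analyses. CD3EAP fell by 41.7%, POLR3G fell by 30.4% and TWISTNB fell by 26.0%. POLR1B fell by 21.0%, GTF3C4 fell by 18.5% and POLR3B fell by 16.6%. Across the 35 genes 14 fell and 3 rose (edgeR quasi-likelihood test, adjusted p under 0.05), which is 40.0% lower and 8.57% higher, against 15.5% lower and 13.8% higher among all genes tested. The median log2 fold change was -0.08 over the 35 genes and -0.00 over all genes tested. With upper-quartile scaling the median of the 35 was -0.03, while the median of all genes moved up by 0.0481. The doxycycline samples lay wholly below the DMSO samples for 17 of the 35, where 21.0% of all tested genes did so, and wholly above for 4, where 20.7% did. CPM are shares of a library, so fewer cells of a kind and less of an RNA per cell cannot be told apart.

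Calls differed when base composition and transcript length were allowed for. In these libraries fold changes followed the GC content of a gene's longest annotated transcript, with a Spearman rho of 0.712 over the 35 genes and 0.408 over 15036 tested genes. These points share the same 6 libraries, so the correlations are given as descriptions. A GC and length offset takes a fitted smooth trend with each property out of each library. With it, 11 of the 35 were lower (31.4%, against 11.4% of 15036 genes) and 0 were higher (against 10.8%). Of those 11, 6 were the genes named above. The other 5 that were lower with the offset, POLR1A, POLR3E, TCOF1, GTF3C2 and MAF1, had GC contents of 51.7% to 62.5% and were not called without it. The 8 that fell without the offset and were not called with it had GC contents of 36.5% to 46.8%, and the 3 that rose had 56.7% to 64.7%. The offset fits length as well, and the parts of GC content and length in these calls were not separated. POLR1A (longest transcript 12749 bases, GC content 51.7%) went from -0.05 to -0.22 with the offset. POLR1E (2229 bases, 51.1%) went from -0.04 to 0.01. Whether the trend is technical was not tested, and the offset would remove a true change that follows GC content too.

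**Figure D1:**
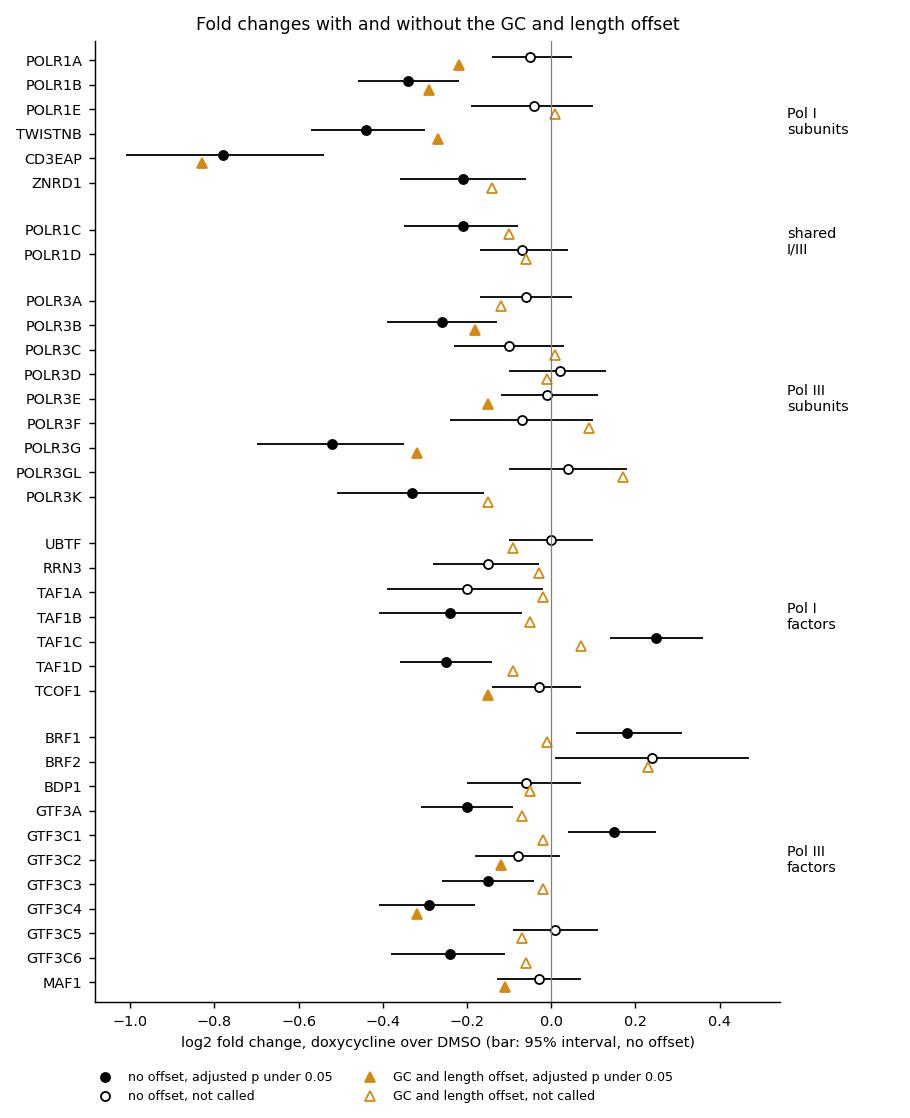
Log2 fold change of each of the 35 genes, doxycycline over DMSO, by role. Circles with bars are the fit without the offset and its 95% intervals, triangles the fit with the GC and length offset, and filled symbols are genes with an adjusted p under 0.05. CD3EAP, TWISTNB, POLR1B, POLR3B, POLR3G and GTF3C4 have filled symbols of both kinds on the left, and the 3 genes with filled circles on the right, TAF1C, BRF1 and GTF3C1, have open triangles near 0.

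MYC binds DNA together with MAX at the E-box CACGTG, so promoters of these genes were searched for those 6 letters, which read the same on both strands. RefSeq windows on GRCh38.p14, from 250 bases before to 50 bases after an annotated start, were matched for 29 of the 35 genes. No window was matched for POLR3G, which fell, or for POLR1E, POLR3D, TCOF1, BRF2 and MAF1, so their promoters were not searched. Of these 29 genes, 7 (24.1%) held the letters in a window, against 12.6% of 9658 tested genes matched by symbol and 7.26% of all 35116 windows. Of the 7, CD3EAP, GTF3C4 and GTF3C6 fell and POLR3A, POLR3C, POLR3E and GTF3C2 were not called. By call, the letters were in a window of 3 of 13 genes that fell, 4 of 13 that were not called and 0 of 3 that rose. The 10 that fell without them were TWISTNB, POLR1B, ZNRD1, POLR1C, POLR3B, POLR3K, TAF1B, TAF1D, GTF3A and GTF3C3. A match is no evidence that a factor was bound. The matches are shown with 30 bases on each side, on the strand of the gene and with the E-box in capitals, because they can be set against each gene's change. Positions count from 0 at the annotated start.
CD3EAP, chr19:45406602-45406667, plus strand, E-box at -12: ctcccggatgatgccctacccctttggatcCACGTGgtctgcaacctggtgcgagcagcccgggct
GTF3C4, chr9:132669970-132670035, plus strand, E-box at -35: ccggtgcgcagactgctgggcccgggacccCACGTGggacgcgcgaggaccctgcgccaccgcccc
GTF3C6, chr6:110958534-110958599, plus strand, E-box at -142: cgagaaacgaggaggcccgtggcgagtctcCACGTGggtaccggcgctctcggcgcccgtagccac
POLR3A, chr10:78029515-78029580, minus strand, E-box at -35: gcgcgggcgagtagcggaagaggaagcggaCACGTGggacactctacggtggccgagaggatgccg
POLR3C, chr1:145823974-145824039, plus strand, E-box at -196: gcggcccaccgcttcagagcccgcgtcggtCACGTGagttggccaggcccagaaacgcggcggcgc
POLR3E, chr16:22297378-22297443, plus strand, E-box at -1: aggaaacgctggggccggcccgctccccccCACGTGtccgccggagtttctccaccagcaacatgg
GTF3C2, chr2:27356832-27356897, minus strand, E-box at -103: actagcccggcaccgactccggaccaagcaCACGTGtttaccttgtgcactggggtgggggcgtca

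Of the 6 subunits that polymerase I does not share with polymerase III, 4 fell (66.7%, against 15.5% of all genes tested) and 0 rose. Their median log2 fold change was -0.27. CD3EAP, now named POLR1G, pairs with POLR1E in a module that helps the enzyme begin and extend a transcript. It stood at 4.74, 5.76 and 6.39 CPM in doxycycline samples, against 8.73, 9.67 and 10.7 CPM in DMSO samples. The groups were far apart, with a log2 fold change of -0.78 (SE 0.114, edgeR adjusted p = 1.97e-05), the largest fall among the 35 genes. This fall did not shrink with the GC and length offset, at -0.83. Its promoter E-box is the first shown above.

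In GENCODE 29, 43.5% of the exonic bases of CD3EAP overlap exons of ERCC1, a DNA repair gene on the opposite strand, and the sources used here do not give the strand setting of the authors' counting. ERCC1 itself averaged 66.4 ± 3.64 CPM in doxycycline and 63.3 ± 3.89 CPM in DMSO (SD, n = 3 each). Its log2 fold change was 0.07 (edgeR adjusted p = 0.393), and its groups overlapped. POLR1E, the partner of CD3EAP, averaged 23.7 ± 1.50 CPM in doxycycline and 24.4 ± 1.79 CPM in DMSO (SD, n = 3 each). Its 95% interval of the log2 fold change, -0.19 to 0.10, lies above that of CD3EAP, -1.01 to -0.54. The difference between these partners was not tested.

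TWISTNB, now POLR1F, forms the stalk of the enzyme that meets RRN3. It had 42.5, 51.2 and 46.8 CPM in the doxycycline samples, against 63.1, 58.7 and 68.2 CPM in the DMSO samples. Every doxycycline sample lay below every DMSO sample, and the log2 fold change was -0.44 (SE 0.0661, edgeR adjusted p = 3.10e-05). With the offset TWISTNB fell by 0.27 on the log2 scale and was still called (edgeR adjusted p = 7.38e-04).

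POLR1B, one of the catalytic pair at the heart of the enzyme, stood at 36.6, 37.0 and 38.7 CPM in doxycycline samples and 47.6, 45.7 and 48.8 CPM in DMSO samples. The groups did not overlap, with a log2 fold change of -0.34 (SE 0.0583, edgeR adjusted p = 1.16e-04). The other catalytic subunit, POLR1A, had 189, 184 and 188 CPM in doxycycline samples, against 192, 192 and 194 CPM in DMSO samples. These groups did not overlap either, but by little, and POLR1A was not called (-0.05, SE 0.0468, edgeR adjusted p = 0.477). With the offset it was called lower, at -0.22 (edgeR adjusted p = 3.17e-04).

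ZNRD1, now POLR1H, helps the enzyme cut back a misplaced transcript. It had 14.5, 14.6 and 15.2 CPM in the doxycycline samples, against 17.2, 16.3 and 17.8 CPM in the DMSO samples. The groups did not overlap, and the log2 fold change was -0.21 (SE 0.0751, edgeR adjusted p = 0.0365). ZNRD1 was called lower in 3 of the 15 alternatives. With upper-quartile scaling its edgeR adjusted p was 0.110 and with library size alone 0.108, and DESeq2 gave ZNRD1 an adjusted p of 0.0926. The ZNRD1 call was also lost without DMSO replicate 1 or 3 or any 1 of the doxycycline replicates, at an edgeR adjusted p of 0.0624 to 0.111, and with the offset (-0.14, edgeR adjusted p = 0.152). ZNRD1 shares 24.5% of its exonic bases with a pseudogene on the opposite strand.

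POLR1C and POLR1D form a pair on which both polymerases I and III are assembled. POLR1C had 32.5, 28.9 and 31.1 CPM in doxycycline samples, against 33.5, 37.6 and 36.2 CPM in DMSO samples. It fell by 0.21 on the log2 scale (SE 0.0651, edgeR adjusted p = 0.0149), with the groups just apart. POLR1C missed the threshold when replicate 2 of DMSO (edgeR adjusted p = 0.0526) or replicate 2 of doxycycline (0.0916) was left out, with library size alone (0.0521) or upper-quartile scaling (0.0587), and with the offset (-0.10, edgeR adjusted p = 0.229). POLR1D averaged 96.3 ± 3.93 CPM in doxycycline and 101 ± 2.46 CPM in DMSO (SD, n = 3 each) and was not called, with a 95% interval of -0.17 to 0.04.

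**Figure D2:**
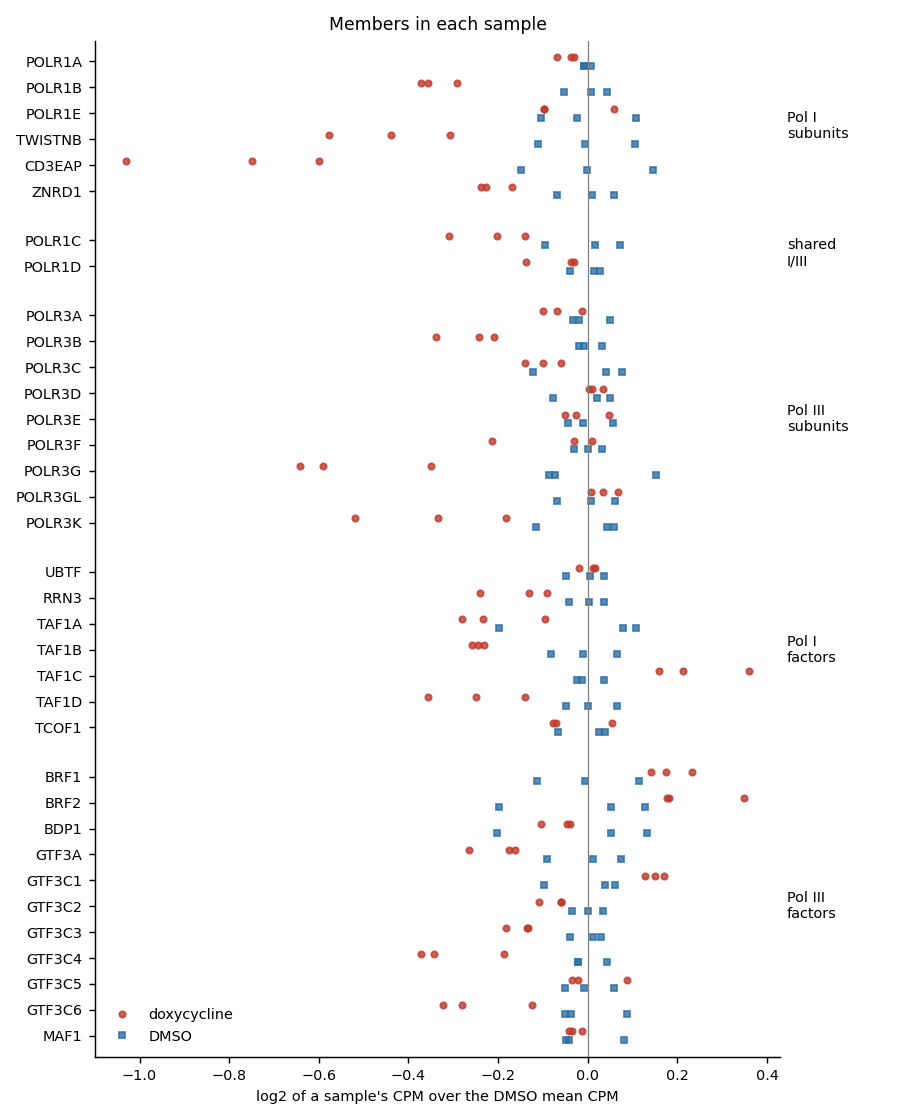
Each sample's level of the 35 genes as the log2 of its CPM over the DMSO mean, with doxycycline samples as circles above DMSO samples as squares. The CD3EAP circles of doxycycline replicates 1 and 2 sit farthest left. All circles of CD3EAP, POLR1B, TWISTNB, POLR3B, POLR3G and GTF3C4 lie left of all their squares, while UBTF, POLR3D and GTF3C5 overlap around 0.

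In polymerase III, 3 of 9 subunits fell (33.3%, against 15.5% of all genes tested) and 0 rose. The median log2 fold change of the 9 was -0.07. The 3 were not of one module. POLR3G belongs to a part with POLR3C and POLR3F that opens the promoter, and in mammals it is an alternative to its paralog POLR3GL. It is known to be abundant in stem cells and many transformed cells. POLR3G had 14.3, 17.5 and 14.8 CPM in doxycycline samples, against 21.2, 21.0 and 24.8 CPM in DMSO samples. The groups did not overlap, with a log2 fold change of -0.52 (SE 0.0838, edgeR adjusted p = 5.37e-05). With the offset POLR3G fell by 0.32, and its GC content of 34.3% was the lowest of the 35 genes.

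POLR3GL had 22.2, 21.3 and 21.7 CPM in doxycycline samples and 22.1, 20.2 and 21.3 CPM in DMSO samples. These groups overlapped, and the log2 fold change of POLR3GL was 0.04 (95% interval -0.10 to 0.18, edgeR adjusted p = 0.712). Per kilobase of merged exons, the ratio of POLR3G to POLR3GL counts was 0.287, 0.366 and 0.306 in doxycycline samples, against 0.430, 0.465 and 0.522 in DMSO samples. Means were 0.320 ± 0.0412 in doxycycline and 0.472 ± 0.0464 in DMSO (SD, n = 3 each). The ratio was therefore below 1 in all 6 samples and lower in each doxycycline sample than in any DMSO sample. It was not tested, and because both counts come from the same library it does not depend on the scaling. With the length of the longest transcript instead, the means were 0.348 in doxycycline and 0.514 in DMSO. In GENCODE 29, 21.2% of the exonic bases of POLR3GL are shared with another gene on the same strand.

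**Figure D3:**
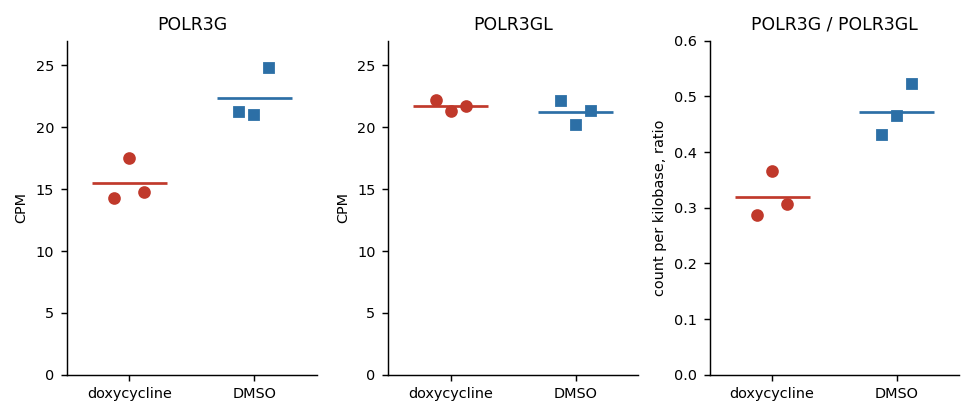
CPM of POLR3G and of POLR3GL, and the ratio of their counts per kilobase of merged exons, for the 3 doxycycline and the 3 DMSO samples, with lines at the means. POLR3G and the ratio are lower in every doxycycline sample than in any DMSO sample, and the POLR3GL groups overlap.

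POLR3B, a catalytic subunit, had 26.9, 26.3 and 24.6 CPM in doxycycline samples, against 30.9, 31.8 and 30.7 CPM in DMSO samples. The groups were apart, with a log2 fold change of -0.26 (SE 0.0635, edgeR adjusted p = 0.00293), and -0.18 with the offset. Its partner POLR3A, the largest subunit, averaged 62.2 ± 1.88 CPM in doxycycline and 64.9 ± 2.05 CPM in DMSO (SD, n = 3 each) and was not called, with a 95% interval of -0.17 to 0.05. Both enzymes thus had one catalytic subunit called lower and the other not called without the offset. The difference within each pair was not tested.

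POLR3K, which aids cleavage and the end of transcription, had 14.9, 11.8 and 13.4 CPM in doxycycline samples, against 15.6, 17.6 and 17.4 CPM in DMSO samples. It fell by 0.33 (SE 0.0862, edgeR adjusted p = 0.00491), with doxycycline replicate 1 close to DMSO replicate 1. With the offset POLR3K was not called (-0.15, edgeR adjusted p = 0.200). POLR3C and POLR3F, which join POLR3G in its module, had log2 fold changes of -0.10 and -0.07 and were not called, as were POLR3D at 0.02 and POLR3E at -0.01, which form another module. With the offset POLR3E was called lower, at -0.15 (edgeR adjusted p = 0.0372).

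Among the factors of polymerase I, 2 of 7 fell (28.6%) and 1 rose (14.3%), against 15.5% and 13.8% of all genes tested. All 3 were within SL1, and the median log2 fold change of the 7 was -0.15. TAF1D, which also carries small nucleolar RNAs within its gene, had 118, 137 and 127 CPM in doxycycline samples, against 146, 151 and 158 CPM in DMSO samples. Its log2 fold change was -0.25 (SE 0.0543, edgeR adjusted p = 0.00128), and the groups did not overlap. TAF1B had 10.7, 10.8 and 10.9 CPM in doxycycline samples and 12.7, 12.1 and 13.4 CPM in DMSO samples, a log2 fold change of -0.24 (SE 0.0835, edgeR adjusted p = 0.0305). The TAF1B call was lost without DMSO replicate 1 or 3 or any 1 of the doxycycline replicates, at an edgeR adjusted p of 0.0688 to 0.107, and with library size alone (0.0831) or upper-quartile scaling (0.0843), so that TAF1B was called in 5 of the 15 alternatives. DESeq2 gave TAF1B an adjusted p of 0.0908. With the offset neither TAF1D (-0.09, edgeR adjusted p = 0.145) nor TAF1B (-0.05, edgeR adjusted p = 0.673) was called.

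TAF1C, another subunit of SL1, went the other way. It had 154, 134 and 139 CPM in the doxycycline samples, against 119, 123 and 118 CPM in the DMSO samples. Every doxycycline sample lay above every DMSO sample, with a log2 fold change of 0.25 (SE 0.0534, edgeR adjusted p = 9.28e-04). With the offset the change of TAF1C was 0.07 and not called (edgeR adjusted p = 0.243), at a GC content of 62.0%. TAF1A, the fourth of these proteins, was not called (-0.20, edgeR adjusted p = 0.0951). It was called lower without DMSO replicate 1, at -0.30 (edgeR adjusted p = 0.0257).

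UBTF and RRN3 were not called without the offset, nor with it (UBTF -0.09, edgeR adjusted p = 0.0832, and RRN3 -0.03, 0.702). UBTF had 369, 368 and 360 CPM in doxycycline samples, against 366, 374 and 353 CPM in DMSO samples, which overlap, with a 95% interval of -0.10 to 0.10 for the log2 fold change. RRN3 had 33.1, 35.7 and 36.7 CPM in doxycycline samples, against 38.0, 39.2 and 40.1 CPM in DMSO samples. The RRN3 groups did not overlap, yet the gene missed the threshold (-0.15, SE 0.0611, edgeR adjusted p = 0.0596). Reads of RRN3 can fall on its near-identical pseudogenes, of which RRN3P1 and RRN3P3 were tested at 0.05 and 0.04 and not called. TCOF1, or treacle, a nucleolar scaffold that binds UBTF and polymerase I, had 299, 274 and 273 CPM in doxycycline samples and 293, 296 and 275 CPM in DMSO samples. Its groups overlapped, at -0.03 (edgeR adjusted p = 0.697), and with the offset it was called lower at -0.15 (edgeR adjusted p = 0.0143).

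Among the 11 factors of polymerase III, 4 fell (36.4%) and 2 rose (18.2%), against 15.5% and 13.8% of all genes tested. Their median log2 fold change was -0.06. The falls were in TFIIIA and TFIIIC. GTF3C4, a TFIIIC subunit, had 102, 116 and 104 CPM in doxycycline samples, against 130, 130 and 136 CPM in DMSO samples. The groups did not overlap, with a log2 fold change of -0.29 (SE 0.0540, edgeR adjusted p = 2.30e-04), and -0.32 with the offset. GTF3C6, the smallest TFIIIC subunit, had 28.8, 32.1 and 28.0 CPM in doxycycline samples and 33.8, 37.2 and 34.1 CPM in DMSO samples, and fell by 0.24 (SE 0.0665, edgeR adjusted p = 0.00755). GTF3C6 missed the threshold when doxycycline replicate 3 was left out (edgeR adjusted p = 0.0605), and when doxycycline replicate 1 and DMSO replicate 2 both were (0.0875). GTF3C3 had 49.9, 51.5 and 51.6 CPM in doxycycline samples and 57.8, 55.1 and 57.1 CPM in DMSO samples, a small fall of 0.15 (SE 0.0546, edgeR adjusted p = 0.0381). The GTF3C3 call was lost without any 1 replicate other than DMSO replicate 2, at an edgeR adjusted p of 0.0757 to 0.126, and with library size alone (0.157) or upper-quartile scaling (0.166), so that GTF3C3 was called in 4 of the 15 alternatives.

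GTF3A, which is TFIIIA and serves the genes of the smallest ribosomal RNA, had 117, 109 and 116 CPM in doxycycline samples, against 132, 138 and 123 CPM in DMSO samples. Its log2 fold change was -0.20 (SE 0.0525, edgeR adjusted p = 0.00525), and the groups did not overlap. With the offset GTF3A (-0.07), GTF3C6 (-0.06) and GTF3C3 (-0.02) were not called, at edgeR adjusted p-values of 0.239, 0.531 and 0.832.

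GTF3C1, the largest TFIIIC subunit, rose. It had 206, 203 and 200 CPM in the doxycycline samples, against 188, 191 and 171 CPM in the DMSO samples, a log2 fold change of 0.15 (SE 0.0507, edgeR adjusted p = 0.0287). The GTF3C1 call was lost without any 1 replicate other than DMSO replicate 2, at an edgeR adjusted p of 0.0503 to 0.161, and with no filter on low counts (0.0693), so that GTF3C1 was called higher in 7 of the 15 alternatives. GTF3C2 and GTF3C5 had log2 fold changes of -0.08 and 0.01 and were not called, GTF3C2 being called lower with the offset at -0.12 (edgeR adjusted p = 0.0317). Subunits of TFIIIC were thus called in both directions without the offset and in 1 direction with it, where GTF3C1 stood at -0.02 (edgeR adjusted p = 0.724).

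Of the TFIIIB proteins, BRF1, which serves transfer RNA genes, rose. It had 52.5, 51.3 and 54.6 CPM in doxycycline samples, against 46.3, 50.3 and 43.0 CPM in DMSO samples, with doxycycline replicate 2 close to DMSO replicate 2. The log2 fold change was 0.18 (SE 0.0610, edgeR adjusted p = 0.0256), and -0.01 with the offset (edgeR adjusted p = 0.936), at the highest GC content of the 35 genes, 64.7%. The BRF1 call was lost without DMSO replicate 1 or 3 or doxycycline replicate 1 or 3, at an edgeR adjusted p of 0.0551 to 0.144, and with no filter on low counts (0.0515), so that BRF1 was called higher in 7 of the 15 alternatives. DESeq2 gave BRF1 an adjusted p of 0.0614. BRF2, which replaces BRF1 at promoters of another type, averaged 7.45 ± 0.516 CPM in doxycycline and 6.32 ± 0.721 CPM in DMSO (SD, n = 3 each). It was not called (0.24, SE 0.111, edgeR adjusted p = 0.106), and 59.0% of its exonic bases overlap a gene on the opposite strand.

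BDP1 had 73.0, 76.0 and 76.4 CPM in doxycycline samples and 86.0, 68.2 and 81.4 CPM in DMSO samples. The DMSO samples spread around the doxycycline samples, and BDP1 was not called (-0.06, edgeR adjusted p = 0.484), except as lower without DMSO replicate 2 (-0.16, edgeR adjusted p = 0.0299). MAF1, the repressor of polymerase III, had 202, 205 and 201 CPM in doxycycline samples, against 200, 219 and 201 CPM in DMSO samples. These groups overlapped, with a log2 fold change of -0.03 (95% interval -0.13 to 0.07, edgeR adjusted p = 0.697). With the offset MAF1 was called lower, at -0.11 (edgeR adjusted p = 0.0474).

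**Figure D4:**
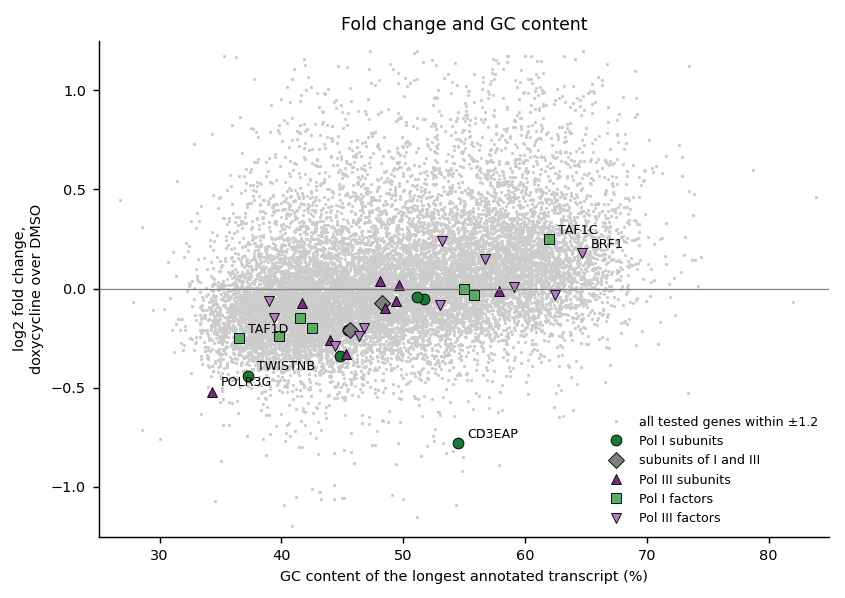
Log2 fold change, doxycycline over DMSO, against the GC content of the longest annotated transcript in percent, for the 35 genes by role (coloured symbols) and all tested genes with a GC value (grey, 108 beyond ±1.2 not drawn). Most of the 35 run from the lower left to the upper right, from POLR3G at 34.3% to BRF1 at 64.7%, and CD3EAP lies far below the rest at 54.5%.

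Levels were compared between genes per kilobase of merged exons in GENCODE 29, a length that depends on the annotation. GTF3C5 stood highest, at 95.3 CPM per kilobase in doxycycline and 94.6 in DMSO, followed by MAF1 at 85.2 in doxycycline and 87.0 in DMSO, and UBTF at 52.2 in doxycycline and 52.1 in DMSO. The lowest in doxycycline were CD3EAP at 1.54 CPM per kilobase, TAF1B at 2.66 and BRF2 at 2.70, which stood at 2.64, 3.14 and 2.29 in DMSO. CD3EAP, the gene with the largest fall, was thus also the lowest in doxycycline samples, and in DMSO samples BRF2 was lower. Of the exonic bases of CD3EAP 43.5% overlap ERCC1, and of those of BRF2 59.0% overlap a gene, in both cases on the opposite strand. With the strand setting not given, their place in this ranking is uncertain, and the part of the overlap in it was not tested. Among polymerase I subunits, POLR1A at 13.8 and TWISTNB at 11.7 led in doxycycline, and TWISTNB at 15.9 and POLR1A at 14.3 led in DMSO. Polymerase III subunits lay between 3.86 for POLR3G and 13.1 for POLR3C in doxycycline, and between 4.71 for POLR3F and 14.0 for POLR3C in DMSO.

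**Figure D5:**
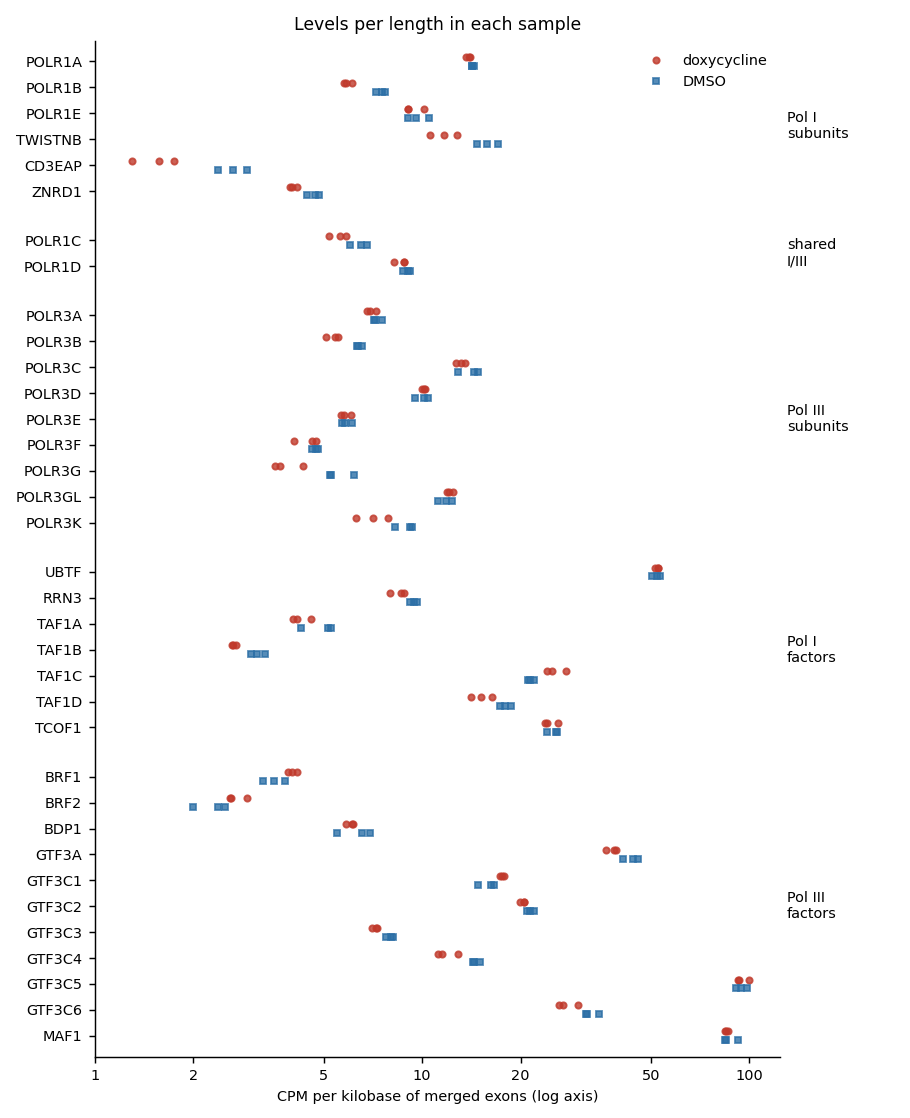
CPM per kilobase of merged exons of the 35 genes in each sample, on a log axis, with doxycycline samples as circles above DMSO samples as squares. GTF3C5, MAF1 and UBTF lie at the right, above 50, and CD3EAP, BRF2 and TAF1B at the left.

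Falls were not confined to polymerases I and III. Of 7 subunits found only in polymerase II, which transcribes protein-coding genes, 5 fell and 0 rose, with a median log2 fold change of -0.23. They were POLR2B at -0.23, POLR2C at -0.20, POLR2D at -0.26, POLR2I at -0.28 and POLR2J at -0.20, and all 5 were also called lower with the offset. POLR2I missed the threshold without DMSO replicate 2 (edgeR adjusted p = 0.0839), as did POLR2J without DMSO replicate 2 (0.217) or without doxycycline replicate 2 (0.131) or 3 (0.0892). POLR2J was called lower in 9 of the 15 alternatives, and also missed the threshold with upper-quartile scaling (edgeR adjusted p = 0.0870), library size alone (0.0757) and the replicate block with the offset (0.0537). The largest subunit, POLR2A, had 1029, 1126 and 958 CPM in doxycycline samples and 980, 1057 and 1636 CPM in DMSO samples, with DMSO replicate 3 above the other 5, and was not called (-0.24, edgeR adjusted p = 0.0985). Without DMSO replicate 3 the log2 fold change of POLR2A was 0.03 (edgeR adjusted p = 0.793). The calls of POLR2A as lower all came with that library included: with the offset (-0.40, edgeR adjusted p = 0.0170, and 0.0160 with the replicate block as well), with no filter on low counts (4.59e-06), and without DMSO replicate 1 (0.0139), DMSO replicate 2 (0.0195) or doxycycline replicate 2 (0.0498). Of 5 subunits common to all 3 polymerases, POLR2H and POLR2K fell, by 0.23 and 0.28, against 3 of 5 with the offset. With it POLR2H was still called, POLR2K was not (0.03, edgeR adjusted p = 0.719), and POLR2E (-0.17, edgeR adjusted p = 0.00347) and POLR2F (-0.18, 0.0299) were called lower. The share called lower was thus 71.4% for polymerase II alone, 66.7% for polymerase I alone and 33.3% for polymerase III, counts of 5 of 7, 4 of 6 and 3 of 9 that were not tested against each other. Over all genes tested the share was 15.5%. With the offset the shares were 85.7%, 66.7% and 33.3%, against 11.4% over all genes.

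Of 11 further genes of polymerase III, 2 fell and 0 rose. The share that fell, 18.2%, was near the 15.5% of all genes tested. SSB, the La protein that holds the ends of new polymerase III transcripts, fell by 0.41 (SE 0.0582, edgeR adjusted p = 1.27e-05) and by 0.23 with the offset. ZNF143, an activator of small RNA genes, fell by 0.22 (edgeR adjusted p = 0.0278) and was not called with the offset. ZNF143 was called lower in 4 of the 15 alternatives. It missed the threshold without any 1 replicate other than DMSO replicate 3, at an edgeR adjusted p of 0.0635 to 0.144, and with library size alone (0.0827) or upper-quartile scaling (0.0856). DESeq2 gave ZNF143 an adjusted p of 0.0659. TBP, shared by SL1 and TFIIIB, was not called (-0.05, edgeR adjusted p = 0.566), nor was any of the 5 SNAPC genes tested. SNAPC1 was called lower without DMSO replicate 3 (-0.27, edgeR adjusted p = 0.0445), and SNAPC4 was called higher, at 0.17 in each case, under library size alone (edgeR adjusted p = 0.0142) and upper-quartile scaling (0.0124). Of 8 further genes of polymerase I, 37.5% fell and 12.5% rose, against 15.5% and 13.8% of all genes tested. NOLC1, TTF1 and SMARCA5 fell, by 0.25, 0.21 and 0.14, and BAZ2A, which silences ribosomal RNA genes, rose by 0.23. Of these 4, NOLC1 alone was called with the offset, at -0.22. The offset also brought a lower call for MYBBP1A (-0.28, edgeR adjusted p = 6.85e-05) and a higher one for TAF12 (0.26, edgeR adjusted p = 9.90e-04). TAF12 was also called higher, at 0.16 in each case, with upper-quartile scaling (edgeR adjusted p = 0.0367) and under library size alone (0.0480). SIRT7 was called higher with upper-quartile scaling (0.23, edgeR adjusted p = 0.0155), under library size alone (0.0206) and without doxycycline replicate 2 (0.0280). TTF1 missed the threshold when doxycycline replicate 3 (edgeR adjusted p = 0.0501) or DMSO replicate 1 (0.0544) was left out. SMARCA5 was called lower in 6 of the 15 alternatives. It missed the threshold without DMSO replicate 1 (edgeR adjusted p = 0.185), doxycycline replicate 1 (0.204) or doxycycline replicate 2 (0.120), and with library size alone (0.188), upper-quartile scaling (0.204) or the replicate block (0.0683).

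In the authors' deposited table, 12 of the 35 genes had an adjusted p-value under 0.05 with a lower value and 2 with a higher one, where 15.6% and 9.79% of the genes given an adjusted p-value did. The authors' deposited table gives CD3EAP a log2 fold change of -0.79, POLR3G -0.53, TWISTNB -0.45 and POLR1B -0.35. ZNRD1, TAF1B and BRF1 missed the threshold there, at adjusted p-values of 0.0916, 0.0898 and 0.0607 in the authors' deposited table.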

How the data were processed

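Counts per gene were deposited by the authors as raw whole numbers. STAR 2.5.2a, featureCounts, DESeq2 1.12.4 and hg19 are named per the submitters' processing notes, with no role; the annotation and strand setting are not given in the sources used here. Libraries were strand-specific and read from both ends, per the labels' protocols. The authors' deposited table holds, per the file headers, a mean signal, a log2 fold change with its error, a Wald score and p-values.

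Genes were kept with filterByExpr, scaled with TMM and tested by quasi-likelihood in edgeR 4.0.16 under R 4.3.3 over 15492 genes, with treatment as the only term, Benjamini-Hochberg adjustment over all of them and calls at 0.05. The SE is the log2 fold change over the square root of F. The fit was tested on simulated data. Alternatives were DESeq2 1.42.0, other scalings, no filter, a replicate block, left-out replicates and an offset fitted per library to the GC content and log2 length of the longest GENCODE 29 transcript (natural splines, 5 degrees of freedom each, prior count 2, mean log2 CPM above 2), which covered 97.1% of tested genes. GENCODE 29 and the promoter windows are of GRCh38, while the processing notes name hg19. Coordinates are given for the promoter matches only. Promoter sequences are RefSeq's.

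Of the 35 names, 4 matched several gene identifiers. The 35 names matched 45 in all, of which the 10 extra ones had 0 counts. Exons of 19 of the 35 genes overlap another gene on the opposite strand, so their counts are uncertain. Members, gene lists and the naming rule (every member; values per sample for called members and for POLR3GL, MAF1, UBTF, RRN3 and TCOF1; companions) were chosen with earlier results of these data known. POLR2A is also given per sample, chosen after its values were seen.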

Additional observations from a re-analysis of the deposited data

How the results depend on the processing

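These are numbers of the 35 genes called and median log2 fold changes, unless other genes are named. The 6 genes CD3EAP, TWISTNB, POLR1B, POLR3G, POLR3B and GTF3C4 were lower in all 15 alternatives. The number lower was 10 under library size alone, 10 under upper-quartile scaling, 14 with DESeq2's size factors in edgeR, 12 with DESeq2 and 14 with no filter. Calls over all genes also moved between settings, so these counts and those below do not alone show a change particular to the 35 genes. With 1 replicate left out, 10 to 14 of the 35 genes were lower and 1 to 3 higher. Over those same left-out replicates the lower count was 0 to 1 for the shared pair, 1 to 2 for factors of polymerase I and 2 to 5 for factors of polymerase III, and the higher count for factors of polymerase III was 0 to 2. Medians were then -0.10 to -0.06 over the 35 genes, -0.09 to -0.06 for subunits of polymerase III and -0.08 to -0.04 for factors of polymerase III. Leaving out both doxycycline replicate 1 and DMSO replicate 2, 2 factors of polymerase III were lower, and the medians were -0.11 over all and -0.10 for subunits of polymerase III.

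With upper-quartile scaling the median of all genes moved by 0.0481, and 1585 of all genes were lower, against 2408 in the fit described above. With this scaling 4 of the 31 other polymerase genes were higher, as with library size alone. Medians were then -0.03 over the 35 genes, -0.23 for subunits of polymerase I, -0.09 for the shared pair, -0.03 for subunits of polymerase III, -0.11 for factors of polymerase I and -0.02 for factors of polymerase III. With library size alone they were -0.03 over all, -0.23 for subunits of polymerase I, -0.03 for those of polymerase III and -0.02 for its factors. Under both scalings 0 of the shared pair and 1 factor of polymerase I were lower, and MYC was called higher at 0.14 (edgeR adjusted p = 0.0357 and 0.0281).

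DESeq2 called 1343 of all genes higher, against 2137 in the fit described above. It called 1 factor of polymerase I lower and 1 factor of polymerase III higher. With no filter on low counts 1 of the 35 was higher, 0 of them factors of polymerase III, and the median was -0.09. With the GC and length offset 0 were higher, in both factor groups and over all 35 genes, and 0 of the shared pair and 1 factor of polymerase I were lower. Medians were then -0.08 for the shared pair, -0.12 for subunits of polymerase III and -0.05 for factors of polymerase I, and the signs of BRF1 (-0.01) and GTF3C1 (-0.02) turned round, as did that of POLR2K (0.03). The replicate block with the offset gave the same values for each of these, with 2 factors of polymerase III lower. The cause of these shifts was not tested.

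The labels do not say that replicate numbers pair the samples. Deviations of same-numbered samples from their group means correlated at -0.0564, -0.224 and 0.0880 across 10881 genes. Differently numbered samples were not compared, so these values do not show whether the samples were paired. With the replicate block 12 of the 35 genes were lower and 3 higher, with ZNRD1 and GTF3C3 no longer called (edgeR adjusted p = 0.0520 and 0.0667). The settings for the other polymerase genes beyond the offset and upper-quartile scaling were added after the data were seen, and with 1 replicate left out 9 to 13 of them were lower and 1 to 2 higher.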
